A study of Mus musculus with 16 samples.

Results

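The clustered protocadherin genes of the mouse were followed in RNA-seq of the hippocampus of non-stressed and chronic-stressed mice. They were taken as every gene of the deposited table whose symbol is Pcdha, Pcdhac, Pcdhb, Pcdhga, Pcdhgb or Pcdhgc followed by a number, which gave 58 of 55359 genes. Of these, 14 belonged to the alpha cluster, 22 to the beta cluster and 22 to the gamma cluster. All mice were of the strain C57BL/6JNarl, and no genetic change or drug is named for any group. Males and females were each either non-stressed or chronic-stressed, which makes 4 groups of 4 libraries. A pool size of 3 is given for every library except those of chronic-stressed males, whose libraries 1 to 4 have pool sizes of 2, 2, 1 and 2, taken here as animals. The kind and length of the stress and the age of the mice are not given in the sources used here. The sample labels name the tissue as brain and the series design names the hippocampus.

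Clustered protocadherins are cadherin-like adhesion proteins of the neuronal surface that bind copies of themselves on other membranes. In the mouse, neurons switch on small combinations of them by choosing among many promoters, a choice that depends on DNA methylation and on loops held by CTCF and cohesin, and the combination lets neurites of the same cell recognise and avoid each other. The C-type genes at the ends of the alpha and gamma arrays (Pcdhac1, Pcdhac2, Pcdhgc3, Pcdhgc4 and Pcdhgc5) are known to be expressed more evenly from cell to cell than the others.

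The 58 genes lay head to tail on the plus strand of chromosome 18 between 37063237 and 37974926 (GRCm39), a stretch of 911.7 kb. The alpha genes ran from 37063237 to 37320714, the beta genes from 37397991 to 37657532 and the gamma genes from 37794846 to 37974926. Each alpha and gamma gene joins a private variable exon to constant exons that all members of its cluster share, whereas beta genes have no such constant exons. By the GENCODE M21 annotation, the exon bases that belong to no other gene on the same strand (called own bases here) made up a median of 46.4% of the exonic length of an alpha gene, 55.3% of a gamma gene and 100% of a beta gene. Whether reads in the constant exons entered the counts is not given in the sources used here. The 4 other genes on the same strand that share exons with members held 0 counts over all 16 libraries. The symbol Pcdha11 stands for 2 genes of the table, ENSMUSG00000007440 and ENSMUSG00000102206, which are kept apart here by identifier. The beta genes are close copies of each other, so how reads were split among them is uncertain.

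Sequencing depth lay between 15.2 and 20.1 M counts (M, mega) in the 8 non-stressed and between 18.2 and 32.5 M in the 8 stressed libraries. The 10 neuronal markers summed to 8725 to 10566 CPM (counts scaled to a library total of 1 M) in males and 7151 to 10412 CPM in females without stress. With stress they summed to 10389 to 11464 CPM and 10382 to 10869 CPM, with overlap in both sexes. Of these 10, 2 rose and 0 fell in males and 3 rose and 0 fell in females by the test described below. All 6 dentate granule and all 6 CA pyramidal markers were counted, at summed levels of 399 to 508 and 688 to 788 CPM. The serotonergic markers, whose neurons are known for high Pcdhac2, summed to 10.3 to 14.0 CPM in non-stressed and 3.85 to 7.58 CPM in stressed libraries. Only 2 of these 4 markers were tested, and 1 fell in each sex. The 7 astrocyte markers summed to 3490 to 3748 CPM in males and 3183 to 3925 CPM in females without stress. With stress they summed to 4117 to 4495 CPM and 4136 to 4603 CPM, so every stressed library had a higher sum. By the test described below, 2 of the 7 rose and 1 fell in males, and 3 rose and 0 fell in females. The 6 microglia markers summed to 238 to 252 CPM without and 217 to 234 CPM with stress in males, and overlapped in females. Of these, 0 rose and 4 fell in males and 1 rose and 3 fell in females. Of all tested genes 18.5% rose and 21.2% fell in males and 22.1% rose and 27.3% fell in females. The 6 meningeal fibroblast markers were lower without overlap in stressed females (585 to 930.3 against 961 to 1543 CPM) and overlapped in males (672 to 1136 against 630.3 to 964 CPM). The 6 oligodendrocyte markers summed to 5637 to 6423 CPM in males and 5547 to 6711 CPM in females without stress and to 4340 to 5937 CPM and 5036 to 5794 CPM with stress, with overlap in both sexes. Choroid plexus markers varied from 1516 to 7959 CPM across libraries. The part of these cell types in the stress effects below was not tested. The labels do not say whether libraries came from separate pools of animals, so p-values measure the spread between these libraries.

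Levels were compared between genes as CPM per kb of own bases. Pcdhgc5, a C-type isoform known from neuronal synapses, stood highest by the mean over all 16 libraries, at 11.01 ± 3.32 in males and 8.83 ± 7.11 in females without stress and at 18.3 ± 1.49 in males and 17.7 ± 1.45 in females with stress (CPM per own kb, SD, n = 4). Pcdhgc3 followed at 6.79 ± 1.42, 4.97 ± 3.71, 17.1 ± 0.737 and 16.8 ± 1.62 in the same order, and in the stressed groups these neighbours differed by less than their summed SD. Next came Pcdhac2, the isoform needed for the spacing of serotonergic axons in mice, at 4.26 ± 1.09, 3.55 ± 2.91, 9.59 ± 0.474 and 9.64 ± 0.508. The order differed without stress, where the beta gene Pcdhb9 had a higher mean than Pcdhac2 in males (4.65) and females (5.27) and than Pcdhgc3 in females, by less than their summed SD in each case. The other C-type genes were lower, with Pcdhgc4 at rank 18 and Pcdhac1 at rank 44 of 58. Among the remaining genes, Pcdhga11 led the gamma A, Pcdhgb6 the gamma B, Pcdhb9 the beta and Pcdha12 the alpha genes, with means over all 16 libraries of 5.81, 4.71, 5.16 and 1.49 CPM per own kb. Pcdhga11 and Pcdha12 led only in the stressed groups. Without stress, Pcdhga4 led the gamma A genes in males (3.75) and Pcdhga3 in females (3.05, against 3.02 for Pcdhga11), and Pcdha4 stood at 0.928 and 1.05 against 0.899 and 0.776 for Pcdha12. Pcdha8 and Pcdhb1 were near the limit of counting, at 0.0605 and 0.0383 CPM per own kb, and Pcdhb1 held at most 6 counts in a library.

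**Figure D1:**
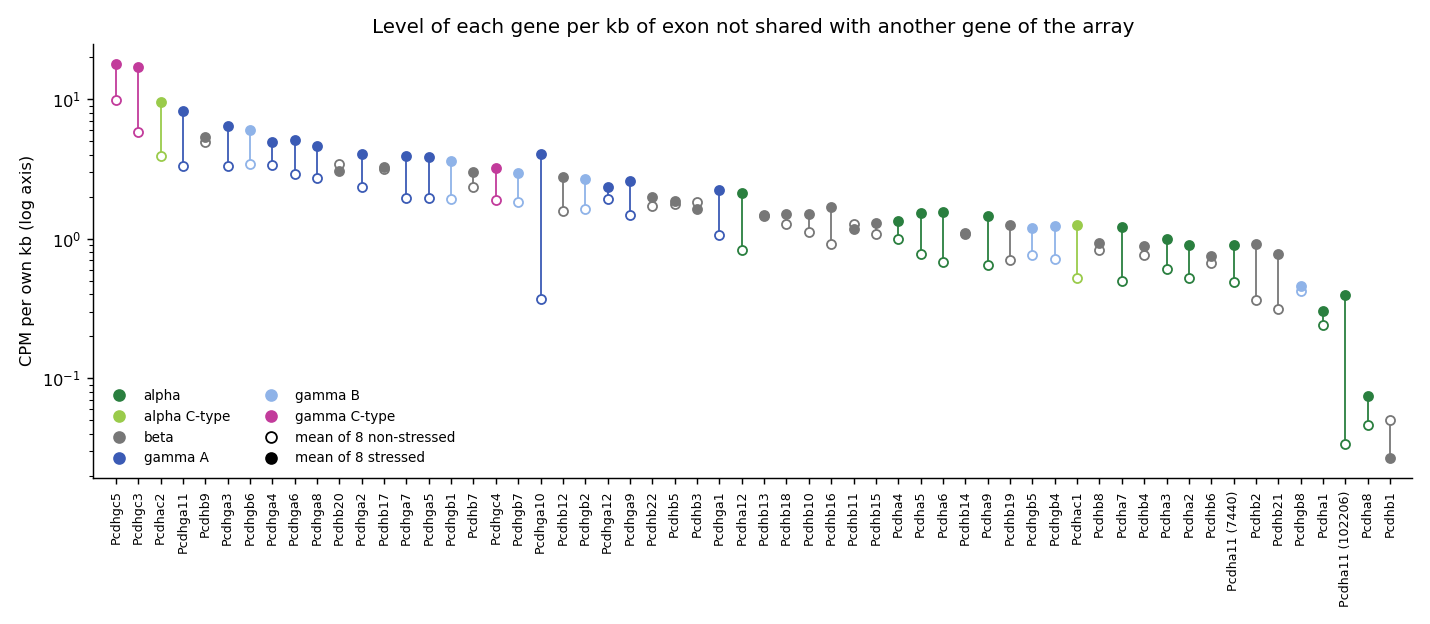
Level of each of the 58 genes as CPM per kb of own exon bases (vertical log axis), ordered by the mean over 16 libraries; open circles are the mean of the 8 non-stressed and filled circles the mean of the 8 stressed libraries, and digits after Pcdha11 are the ends of its identifiers. Pcdhgc5, Pcdhgc3 and Pcdhac2 lead, and Pcdhga10 and the Pcdha11 gene ENSMUSG00000102206 show the widest gaps between circles.

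Summed over its 22 genes, the gamma cluster took more counts in every stressed library than in any non-stressed library of the same sex. Its sum was 142, 172, 212 and 249 CPM in libraries 1 to 4 of non-stressed males and 334, 337, 362 and 352 CPM in stressed males. In females it was 91.3, 235, 268 and 30.9 CPM in non-stressed and 308, 337, 359.6 and 359.9 CPM in stressed libraries. The stressed libraries of both sexes lay close together, while the non-stressed female libraries 1 and 4 stood far below libraries 2 and 3.

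The alpha cluster had the same order at lower levels. Its 14 genes summed to 22.6, 26.1, 31.4 and 34.0 CPM in non-stressed and 62.6, 60.7, 65.9 and 58.3 CPM in stressed males. In females the sums were 11.9, 33.8, 48.1 and 5.74 CPM in non-stressed and 60.5, 61.8, 59.2 and 62.7 CPM in stressed libraries. Groups of a sex did not overlap, and non-stressed female library 4 was again the lowest of all 16.

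The beta cluster varied less, from 125 to 162 CPM over all libraries. Every stressed library was above every non-stressed library of either sex, at the closest by 149.6 against 148.8 CPM. Its 22 genes summed to 134, 137, 128 and 136 CPM in non-stressed and 155, 155, 160.2 and 149.6 CPM in stressed males, and to 128, 125, 149 and 127 CPM in non-stressed and 162, 154, 151 and 153 CPM in stressed females. The stressed libraries were higher in each sex without overlap, by 1.16-fold in males and 1.18-fold in females. The corresponding ratios of group means were 1.78 and 2.18 for the gamma and 2.17 and 2.46 for the alpha cluster. Without non-stressed female libraries 1 and 4 the female ratios were 1.36 for gamma, 1.49 for alpha and 1.14 for beta. In tissue RNA, fewer cells of a type and less RNA per cell cannot be told apart, and sums of this kind carry no test.

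**Figure D2:**
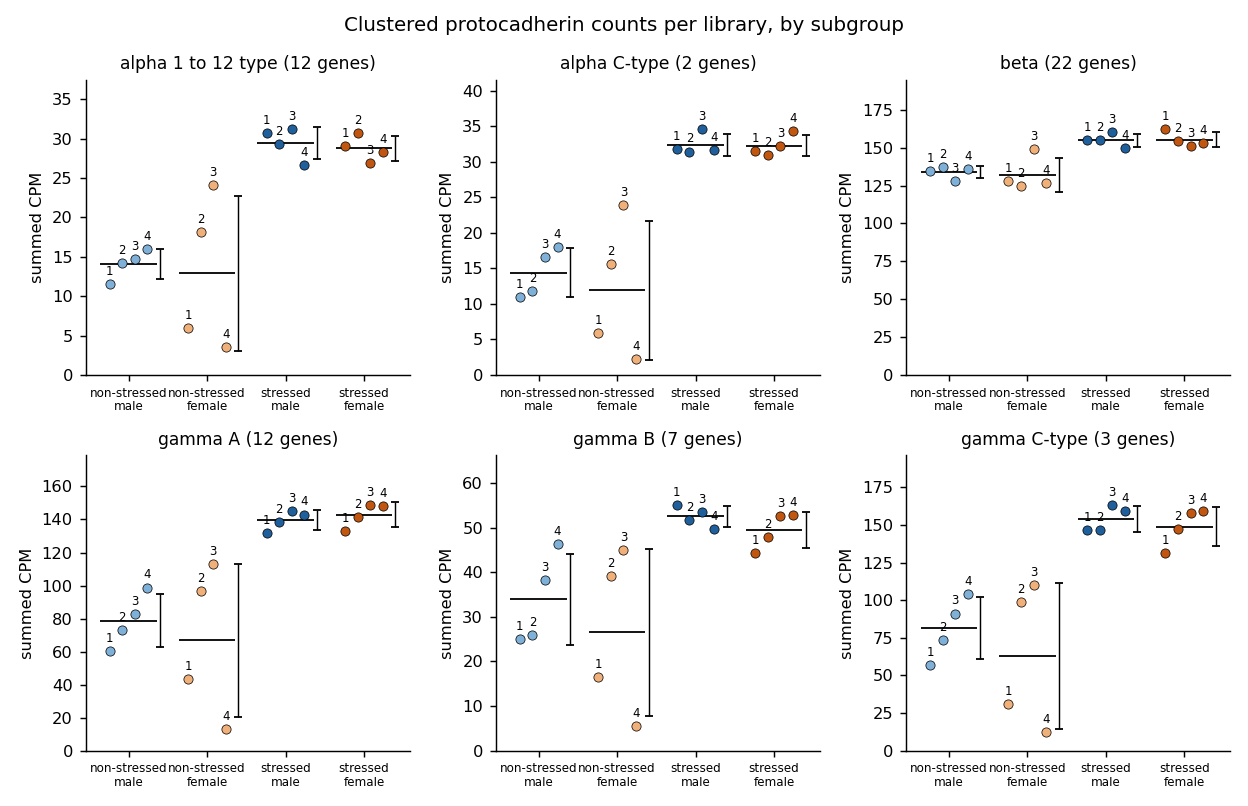
Summed CPM of each subgroup in the 16 libraries (vertical axis from 0, separate scale per panel); points are libraries with their replicate number, lines are group means and bars are SD. Non-stressed females spread widely in the alpha and gamma panels, for example from 13.3 to 113 CPM for gamma A, while the beta panel runs from 125 to 162 CPM over all libraries.

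The spread among the non-stressed libraries was shared by nearly all alpha and gamma genes. All 22 gamma genes and 9 of 14 alpha genes were lowest in non-stressed female library 4 among the 8 non-stressed libraries, against 5 of 22 beta genes. Of the genes counted in all 8 of these libraries, the highest library exceeded the lowest at least 4-fold in 11 of 11 alpha, 21 of 22 gamma and 2 of 21 beta genes, with median ratios of 8.88, 10.5 and 1.58. Pcdhgb2 had the widest ratio, 45.9. Among the 8 stressed libraries the median ratios were 1.57 for alpha, 1.32 for gamma and 1.45 for beta genes. The beta genes that spread at least 4-fold were Pcdhb2 and Pcdhb21, which were also the beta genes with the largest stress effects below.

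Non-stressed female library 4 stood apart in other genes too, but less so. In that library 2.17% of all tested genes lay at least 4-fold below the non-stressed mean, against 14 of 22 gamma, 5 of 14 alpha and 2 of 22 beta genes. Among the 1923 tested genes of 4.5 to 8 kb with a GC content over 50%, which is the length and base composition of the gamma genes, the median log2 level relative to the non-stressed mean was -0.37 in that library, -0.14 in non-stressed female library 1, and between 0.13 and 0.23 in the stressed libraries. For the gamma genes the corresponding medians were -2.41, -0.64 and between 0.97 and 1.20. Neuronal markers summed to 7945, 9785, 10412 and 7151 CPM in non-stressed female libraries 1 to 4, and blood markers to 230.2, 76.8, 90.1 and 215 CPM, so libraries 1 and 4 were low in the neuronal and high in the blood list. The highest blood level, 333 CPM, was in a stressed male library. The part of transcript length, base composition and tissue make-up in the spread of the protocadherin genes was not tested.

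**Figure D3:**
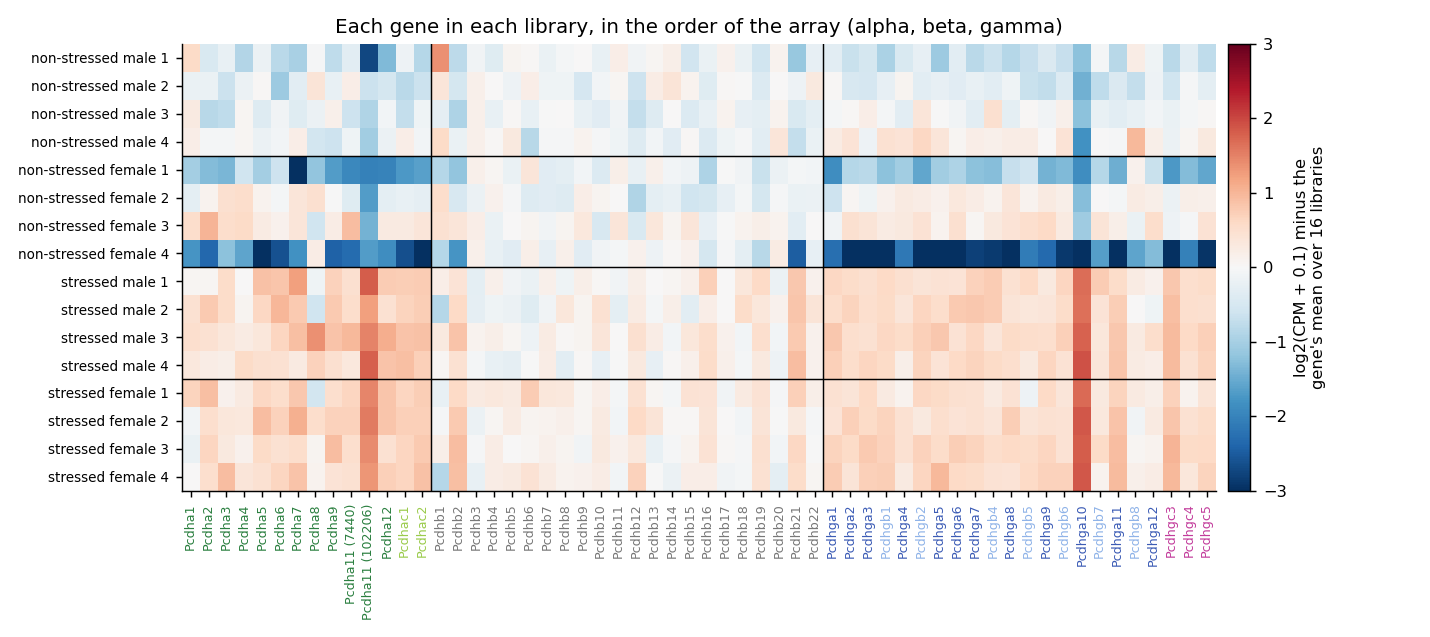
Level of each gene (columns, in array order) in each library (rows) as log2(CPM + 0.1) minus the gene's mean over 16 libraries, with colours limited to 3 in either direction. The rows of non-stressed female libraries 4 and 1 are blue across most of the alpha and gamma columns and pale across most of the beta columns.

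Stress effects on single genes were tested with edgeR's quasi-likelihood test over 17569 genes that reached an FPKM of 0.5 in at least 4 of 16 libraries. Calls were made at an adjusted p (Benjamini-Hochberg, over all of these genes) below 0.05, and errors of log2 fold changes are SE. In males 14 of 48 tested members rose and 0 fell, where 18.5% of all tested genes rose and 21.2% fell. In females 23 of 48 rose and 0 fell, where 22.1% of all tested genes rose and 27.3% fell. All 14 genes that rose in males were among the 23 of females.

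Not all 58 genes could be tested. The filter left out 10 members, and 8 that passed it did so only through stressed libraries, so that these had to be higher there. They account for 7 of the 14 rises in males and 8 of the 23 in females. Among the other 40 tested members 7 rose in males and 15 in females, where 18.5% and 22.1% of all tested genes rose. The male count was near the share of all tested genes. With no filter, 19 of 58 rose in males and 33 of 58 in females, where the share of all genes that rose was 10.2% and 12.3%. Those shares are over 35603 genes with a count, where 3646 rose in males and 4368 in females. Past the filter 3254 and 3879 of 17569 genes rose, so few of the genes added without it rose. In the fit with no filter the median log2 fold change of the 58 genes was 0.75 in males and 0.89 in females, against 0.00 and 0.00 for all genes in it. Counted without a test, 33 of the 58 genes were higher in all 4 stressed than in all 4 non-stressed male libraries, and 26 in females. The shares among all genes with a count were 11.4% and 10.9%. These too are over 35603 genes, and a gene with 0 counts in any stressed library of a sex cannot be higher in this way. The share among genes past the filter is not given here. Of the 33 in males 11 were alpha, 5 beta and 17 gamma genes, and of the 26 in females 8 were alpha, 8 beta and 10 gamma genes.

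The test pools the spread of all 4 groups, and the counts moved when the non-stressed female libraries that stood apart were left out. Without non-stressed female libraries 1 and 4, 36 of 48 members rose in males and 15 of 48 in females, against 27.0% and 15.9% of all tested genes. Without library 4 alone the male count was 30, and without library 1 alone the female count was 15. After removal of the trend with transcript length and GC content from every library, 19 rose in males and 24 in females, where the shares of all tested genes were 17.8% and 17.9%. Of the 19 tested members with no gene on the opposite strand within 5 kb, all beta genes, 4 rose in males and 7 in females, against 17.4% and 20.9% of the genes tested under that restriction. The 19 include Pcdhb2 and Pcdhb21, which passed the filter only through stressed libraries.

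**Figure D4:**
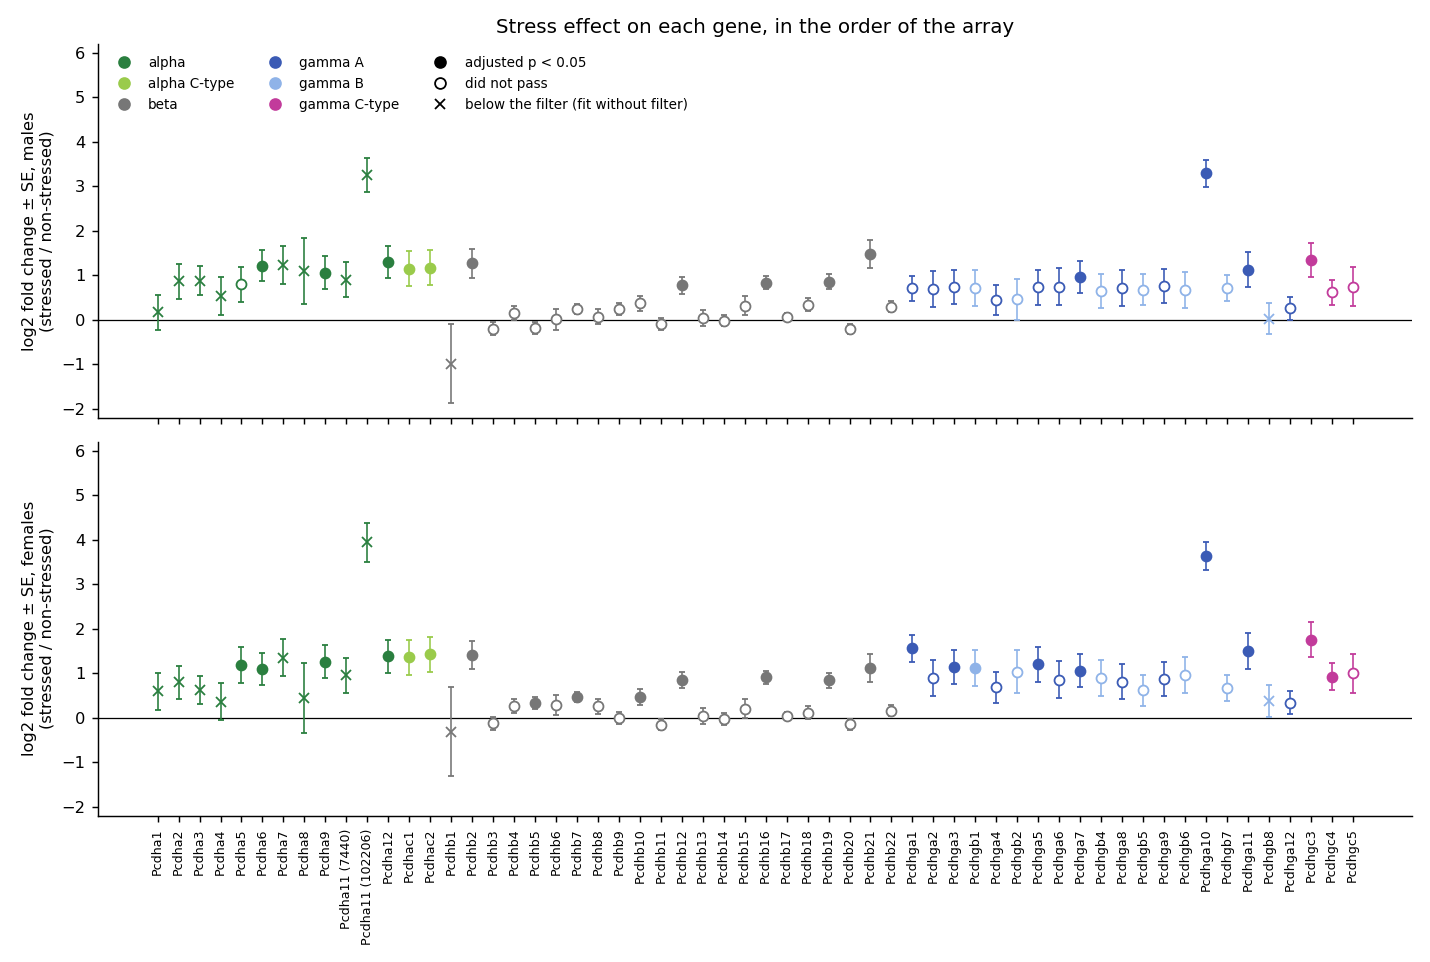
Stress effect on each gene in array order as log2 fold change of stressed over non-stressed libraries with SE bars, males above and females below; filled circles passed at an adjusted p under 0.05, open circles did not, and crosses are genes below the filter from a fit without it. Alpha and gamma genes lie above 0 in both sexes, most beta genes lie near 0, and Pcdhga10 and a Pcdha11 gene stand above 3.

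The C-type genes include the most abundant isoforms. Pcdhgc3, known from mice to promote dendrite branching of cortical neurons through Axin1, stood at 17.6, 20.2, 26.9 and 27.1 CPM in non-stressed and 54.2, 57.7, 59.5 and 59.4 CPM in stressed male libraries. In females it stood at 9.19, 27.4, 27.5 and 3.09 CPM in non-stressed and 49.8, 55.0, 62.1 and 60.1 CPM in stressed libraries. Every stressed library was above every non-stressed library in either sex, and the gene rose in males (log2 fold change 1.34 ± 0.38, adjusted p = 0.0108) and in females (log2 fold change 1.75 ± 0.39, adjusted p = 0.00168). Of its own bases 46.1% lie under exons of BC037039 on the opposite strand.

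Pcdhac2 was read at 9.31, 10.8, 15.5 and 15.9 CPM in non-stressed and 28.6, 28.4, 31.1 and 27.9 CPM in stressed males, and at 5.39, 14.0, 21.6 and 2.04 CPM in non-stressed and 28.5, 27.8, 29.2 and 31.3 CPM in stressed females. The stressed libraries spanned a narrow range above all non-stressed ones, and the rise was called in males (log2 fold change 1.18 ± 0.39, adjusted p = 0.0248) and in females (log2 fold change 1.43 ± 0.40, adjusted p = 0.00735). The male call was lost in 4 of 30 alternative settings (adjusted p 0.0514 to 0.0727), 3 of which left out 1 male library, and the female call was lost with the compared groups alone (adjusted p = 0.0533). Its own bases lie under no opposite-strand exon. Without non-stressed female libraries 1 and 4 the female effect was 0.74 (adjusted p = 0.00335).

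Pcdhac1, the other C-type gene of the alpha cluster, stood at 1.72, 1.06, 1.13 and 2.19 CPM in non-stressed and 3.22, 3.07, 3.51 and 3.68 CPM in stressed males, and at 0.507, 1.62, 2.33 and 0.221 CPM and 3.02, 3.22, 3.04 and 3.02 CPM in the female groups. It was higher in every stressed library and rose in males (log2 fold change 1.16 ± 0.38, adjusted p = 0.0237) and in females (log2 fold change 1.35 ± 0.39, adjusted p = 0.00940). The male call was lost on leaving out any of 4 male libraries (non-stressed 2 or 3, stressed 3 or 4; adjusted p 0.0513 to 0.0703), and the female call with the compared groups alone (adjusted p = 0.0529). It passed the filter only through stressed libraries.

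Pcdhgc5 stood at 32.7, 45.3, 56.5 and 68.4 CPM in non-stressed and 80.6, 77.0, 91.7 and 88.6 CPM in stressed males, without overlap. In females it stood at 18.8, 62.0, 74.8 and 7.18 CPM in non-stressed and 72.6, 80.9, 83.7 and 88.6 CPM in stressed libraries, where non-stressed library 3 overlapped the stressed range. The test called it in neither sex (males log2 fold change 0.75 ± 0.43, adjusted p = 0.182; females log2 fold change 1.00 ± 0.44, adjusted p = 0.0668). Without non-stressed female libraries 1 and 4 the male effect of 0.77 passed (adjusted p = 0.000293) and the female effect of 0.28 did not (adjusted p = 0.266).

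Pcdhgc4, the isoform required for survival of cortical interneurons in mice, was read at 6.56, 7.98, 7.74 and 8.44 CPM in non-stressed and 11.7, 11.6, 12.3 and 11.1 CPM in stressed males. In females it was read at 3.23, 9.14, 7.94 and 1.93 CPM in non-stressed and 8.72, 11.1, 12.2 and 10.4 CPM in stressed libraries. Male groups did not overlap and female groups did, through non-stressed library 2. The gene rose in females (log2 fold change 0.92 ± 0.30, adjusted p = 0.0172) and did not pass in males (log2 fold change 0.62 ± 0.29, adjusted p = 0.101). Without non-stressed female libraries 1 and 4 this turned around, with 0.65 in males (adjusted p = 7.4e-05) and 0.35 in females (adjusted p = 0.0558).

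Of the 12 alpha genes that are not C-type, 4 were tested (Pcdha5, Pcdha6, Pcdha9 and Pcdha12), each of which passed the filter only through stressed libraries. Pcdha12, the most abundant of them, stood at 1.16, 2.11, 2.92 and 2.70 CPM in non-stressed and 5.32, 4.26, 6.68 and 5.63 CPM in stressed males, and at 0.697, 2.49, 3.72 and 0.773 CPM and 5.59, 5.60, 4.30 and 5.09 CPM in the female groups. Its groups did not overlap, and it rose in males (log2 fold change 1.31 ± 0.37, adjusted p = 0.00962) and in females (log2 fold change 1.38 ± 0.37, adjusted p = 0.00581). Of its own bases 21.5% lie under an opposite-strand exon of Gm10545.

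The other tested alpha genes gave effects of similar size. Pcdha6 rose in males (1.22, adjusted p = 0.0112) and in females (1.09, adjusted p = 0.0169). Pcdha9 rose by 1.06 (adjusted p = 0.0327) and 1.26 (adjusted p = 0.0118) on the log2 scale. Pcdha5 rose in females (1.19, adjusted p = 0.0221) and did not pass in males (0.80, adjusted p = 0.119). Among the 8 untested alpha genes, Pcdha7 and the Pcdha11 gene ENSMUSG00000102206 were higher without overlap in both sexes, and Pcdha1, Pcdha4 and Pcdha8 overlapped in both.

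By type of gamma gene the counts were as follows. Of 12 gamma A genes 3 rose in males and 6 in females, and of 6 tested gamma B genes 0 rose in males and 1 in females. Of all tested genes 18.5% rose in males and 22.1% in females. The gamma A counts include Pcdhga10, which passed the filter only through stressed libraries. The median log2 fold changes were 0.74 and 0.98 for gamma A and 0.67 and 0.93 for gamma B in males and females. For gamma B in males, edgeR gave an unadjusted p under 0.05 for 1 gene, and DESeq2 called 1. With libraries 1 and 4 of non-stressed females left out, 11 of 12 gamma A and 6 of 6 gamma B genes rose in males. In females 4 and 0 did, where 27.0% of all tested genes rose in males and 15.9% in females. No test of gamma A against gamma B was made.

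Pcdhga10 had the largest fold change among tested members, and it passed the filter only through stressed libraries, so that it had to be higher there. It stood at 1.23, 1.06, 1.23 and 0.788 CPM in non-stressed and 9.89, 9.78, 10.6 and 11.7 CPM in stressed males, and at 0.761, 1.19, 1.39 and 0.0552 CPM in non-stressed and 9.98, 11.4, 10.8 and 11.2 CPM in stressed females. Every stressed library was far above every non-stressed library, and the gene rose in males (log2 fold change 3.29 ± 0.31, adjusted p = 5.5e-07) and in females (log2 fold change 3.64 ± 0.31, adjusted p = 2.2e-07). All of its own bases (100%) lie under an exon of Gm26672 on the opposite strand.

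Its neighbour Pcdhga11 stood at 6.99, 9.24, 10.1 and 12.2 CPM in non-stressed and 18.4, 20.9, 22.1 and 22.4 CPM in stressed males, and at 4.5, 11.96, 14.2 and 1.16 CPM in non-stressed and 19.9, 22.7, 23.8 and 24.4 CPM in stressed females. The groups were apart in both sexes, and it rose in males (log2 fold change 1.13 ± 0.39, adjusted p = 0.0295) and in females (log2 fold change 1.5 ± 0.40, adjusted p = 0.00540), with 52.4% of its own bases under Gm26672. The male call was lost in 9 of 30 alternative settings (adjusted p 0.0501 to 0.0836), among them DESeq2 and 6 that left out 1 male library each.

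Pcdhga1, at the start of the gamma array, was read at 3.68, 4.75, 4.46 and 5.51 CPM in non-stressed and 7.15, 6.76, 8.25 and 7.67 CPM in stressed males, and at 1.20, 2.98, 4.27 and 0.883 CPM in non-stressed and 6.36, 6.21, 7.45 and 7.92 CPM in stressed females. It was higher in every stressed library, rose in females (log2 fold change 1.56 ± 0.30, adjusted p = 0.000651) and did not pass in males (log2 fold change 0.71 ± 0.29, adjusted p = 0.0570). The difference between these effects did not pass (edgeR interaction, 0.84 ± 0.42).

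Pcdhgb6 led the gamma B genes, at 6.43, 7.85, 11.7 and 14.1 CPM in non-stressed and 16.6, 15.5, 17.3 and 14.3 CPM in stressed males and at 4.12, 11.96, 12.8 and 1.32 CPM in non-stressed and 13.6, 14.3, 14.3 and 16.9 CPM in stressed females. Its groups did not overlap, though the test called it in neither sex (males log2 fold change 0.67 ± 0.40, adjusted p = 0.185; females log2 fold change 0.96 ± 0.40, adjusted p = 0.0572). The gamma B gene that rose in females was Pcdhgb1 (1.12, adjusted p = 0.0317). At the other end of the range, Pcdhga12 gave 0.26 in males (adjusted p = 0.437) and 0.34 in females (adjusted p = 0.297). The untested Pcdhgb8 gave 0.03 and 0.37 in the fit without a filter.

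Most beta genes did not pass the test. Of 21 tested, 5 rose in males and 8 in females, or 23.8% and 38.1%, where 18.5% and 22.1% of all tested genes rose. Both counts include Pcdhb2 and Pcdhb21, which passed the filter only through stressed libraries and so had to be higher there. The median log2 fold changes of the 21 beta genes were 0.24 and 0.26, against -0.03 and -0.03 for all tested genes. Pcdhb9, the most abundant per kb of the beta genes, stood at 15.6, 11.02, 13.3 and 16.8 CPM in non-stressed and 17.5, 16.5, 16.6 and 16.1 CPM in stressed males, and at 14.7, 17.9, 19.6 and 12.3 CPM and 16.3, 16.3, 14.5 and 17.0 CPM in the female groups. Its groups overlapped in females and in males, and it did not pass in males (log2 fold change 0.24 ± 0.13, adjusted p = 0.165) or females (log2 fold change -0.01 ± 0.13, adjusted p = 0.959).

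The beta genes that rose in both sexes were Pcdhb2, Pcdhb12, Pcdhb16, Pcdhb19 and Pcdhb21. Pcdhb21 stood at 0.858, 1.78, 1.44 and 1.18 CPM in non-stressed and 3.60, 3.64, 3.54 and 3.86 CPM in stressed males, and at 1.90, 1.73, 1.59 and 0.276 CPM in non-stressed and 3.34, 2.45, 3.11 and 2.98 CPM in stressed females. It rose without overlap in males (log2 fold change 1.49 ± 0.32, adjusted p = 0.00151) and in females (log2 fold change 1.11 ± 0.32, adjusted p = 0.00848), and it shares exon bases with Pcdhb22, which did not pass in either sex.

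Pcdhb2 went from 0.858, 1.06, 0.769 and 1.35 CPM to 2.10, 2.39, 2.92 and 2.17 CPM in males and from 0.634, 1.08, 2.04 and 0.386 CPM to 2.41, 2.76, 3.04 and 2.98 CPM in females, and rose in males (log2 fold change 1.27 ± 0.33, adjusted p = 0.00598) and in females (log2 fold change 1.40 ± 0.32, adjusted p = 0.00205). Pcdhb2 and Pcdhb21 both passed the filter only through stressed libraries.

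Opposite-strand genes run through the array, and whether counting kept strands apart is not given in the sources used here, so reads of a member and of an opposite-strand partner may not be separable. Exons of these genes cover own bases of 13 members and none of the other 45. Of 11 tested members with such an overlap 7 rose in males and 8 in females, and of 37 without it 7 rose in males and 15 in females. Of the members with an overlap, Pcdha6, Pcdha12 and Pcdhga10 passed the filter only through stressed libraries. So did Pcdha5, Pcdha9, Pcdhac1, Pcdhb2 and Pcdhb21 of those without. These genes had to be higher with stress, and all of them rose in both sexes except Pcdha5, which rose in females alone. Across all tested genes with a known overlap, 44.84% of the 281 genes with at least 50% of own bases covered rose in males and 48.75% in females, against 17.15% and 20.1% of the 12230 genes with none. In that covered class 24.91% fell in males and 25.27% in females, against 20.91% and 27.74% of the genes with none. Whether called or not, 38.43% of the covered class were at least 2-fold higher in males and 41.28% in females. Among the genes with none these shares were 4.68% and 4.9%. At least 2-fold lower were 19.93% and 19.57% of the covered class, against 6.45% and 7.81%. Only 3 tested members belong to the covered class. Of the 1883 genes with 10% to under 50% covered, the class of 7 tested members, 19.22% rose in males and 23.58% in females, close to the genes with none, and 27.77% and 32.66% fell. In these 7 members 4 rose in males and 5 in females. Both counts include Pcdha6 and Pcdha12, which passed the filter only through stressed libraries and so had to be higher there. The part of opposite-strand reads in the protocadherin values was not tested.

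The 2 members with the widest change had the largest covered shares. For the Pcdha11 gene ENSMUSG00000102206, with 54.0% of own bases under Gm10545 and 18.5% under Gm10544, the files hold 0, 5, 5 and 4 counts in non-stressed males and 42, 28, 58 and 50 in stressed males. In females they hold 1, 2, 3 and 2 counts in non-stressed and 32, 49, 48 and 33 in stressed libraries. The groups did not overlap, and in the fit without a filter the gene rose in males (log2 fold change 3.26 ± 0.39, adjusted p = 1.7e-07) and in females (log2 fold change 3.94 ± 0.43, adjusted p = 3.0e-08). The other Pcdha11 gene, ENSMUSG00000007440, with no covered bases, gave 0.91 (adjusted p = 0.105) and 0.96 (adjusted p = 0.0734) there.

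The values of the opposite-strand partners did not all go the same way. Gm26672, across from Pcdhga10 and Pcdhga11, was at 0.805 ± 0.256 CPM in males and 0.675 ± 0.316 CPM in females without stress, and at 1.74 ± 0.276 CPM and 1.74 ± 0.177 CPM with stress (SD, n = 4). BC037039, across from Pcdhgc3, had 23 and 19 counts summed over the non-stressed male and female libraries and 71 and 66 over the stressed ones. Gm37446, across from Pcdhb12, had 19 and 22 counts in non-stressed and 0 and 1 in stressed libraries, and Pcdhb12 itself rose in males (0.78, adjusted p = 0.00402) and females (0.84, adjusted p = 0.00160). Gm10545 had 18 and 20 counts in non-stressed and 21 and 14 in stressed libraries.

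The gamma genes with no covered own bases were also read alone. Of 13 tested, 0 rose in males by edgeR, with 1 at an unadjusted p under 0.05 and 0 called by DESeq2, and 4 rose in females. By edgeR 18.5% of all tested genes rose in males and 22.1% in females. The median log2 fold changes of the 13 genes were 0.69 in males and 0.92 in females. Without non-stressed female libraries 1 and 4, 13 of 13 rose in males and 1 of 13 in females, against 27.0% and 15.9% of all tested genes. The medians of the 13 genes were then 0.72 and 0.27.

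**Figure D5:**
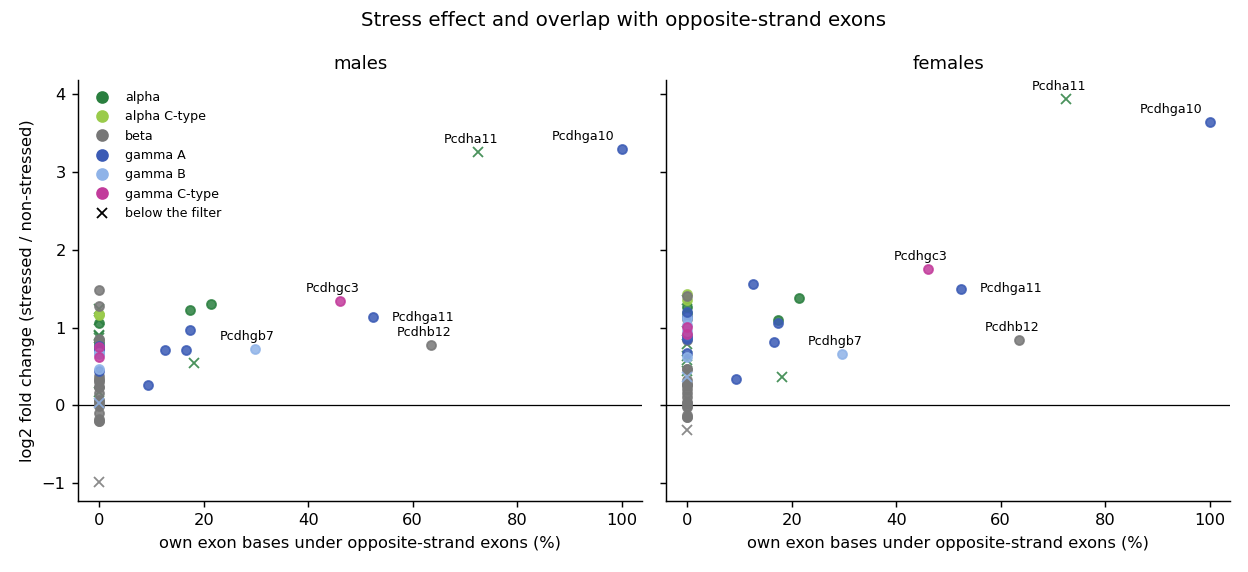
Log2 fold change of stressed over non-stressed libraries (vertical axis) against the percent of a member's own bases that lie under exons of opposite-strand genes (horizontal axis), in males and females; circles are tested genes, crosses are genes below the filter from a fit without it, and colours are subgroups. Pcdhga10 at 100% and the Pcdha11 gene at 72.5% stand above 3, while members at 0% range below 1.5 in both sexes.

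Pcdhgc5 held a similar share of its cluster in all groups. The shares of Pcdhgc3, Pcdhga10 and Pcdhga11 were higher and the summed share of the gamma B genes was lower in the stressed groups. Pcdhac2 took 44.7 ± 3.99% of alpha counts in males and 41.9 ± 4.55% in females without stress, and 46.9 ± 0.909% in males and 47.8 ± 2.27% in females with stress (SD, n = 4). Pcdhgc5 took 25.8 ± 1.98%, 24.5 ± 3.29%, 24.4 ± 1.13% and 23.9 ± 0.587% of gamma counts in the same order, within the spread between libraries. The share of Pcdhgc3 in gamma counts was 11.9 ± 0.792%, 10.5 ± 0.802%, 16.7 ± 0.417% and 16.6 ± 0.484%, and that of Pcdhga10 was 0.593 ± 0.223%, 0.509 ± 0.267%, 3.03 ± 0.198% and 3.18 ± 0.156%. For Pcdhga11 it was 4.98 ± 0.267%, 4.77 ± 0.699%, 6.05 ± 0.377% and 6.65 ± 0.147%. The gamma B genes together took 17.3 ± 1.56%, 17.3 ± 0.663%, 15.2 ± 1.03% and 14.5 ± 0.220%. Of the own bases of Pcdhgc3, Pcdhga10 and Pcdhga11, 46.1%, 100% and 52.4% lie under opposite-strand exons. Shares of a cluster are tied to each other and were given no test.

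Male and female stress effects were compared in the same fit. The interaction called 0 of 48 members by edgeR and 0 by DESeq2, where edgeR called 0.0% of all tested genes. Pcdhb5 alone had an unadjusted edgeR p under 0.05, with a female minus male effect of 0.51 on the log2 scale, and DESeq2 gave 2 such genes. Between the sexes, 0 members differed in non-stressed and 0 in stressed mice by either tool, against 0.0455% and 0.0398% of all tested genes by edgeR. At an unadjusted p under 0.05, Pcdhga1 was lower in non-stressed females (log2 difference -0.95), and Pcdhb5 and Pcdhb6 were higher in stressed females. These p-values do not show that the sexes are alike.

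Related genes were read in the same fit, in which 18.5% of all tested genes rose and 21.2% fell in males and 22.1% rose and 27.3% fell in females. Of 11 tested nonclustered protocadherins, adhesion genes outside the array, 4 rose and 0 fell in each sex, with medians of 0.33 in males and 0.21 in females. Those that rose in males were Pcdh17 (0.63 ± 0.14, adjusted p = 0.00224), Pcdh15 (0.54 ± 0.14, adjusted p = 0.00498), Pcdh9 (0.33 ± 0.09) and Pcdh20 (0.35 ± 0.10). Of 14 classical and related cadherins 2 rose and 1 fell in males and 4 rose and 2 fell in females, with Cdh8 at 0.42 ± 0.08 and 0.46 ± 0.08, Cdh12 at 0.52 ± 0.14 and 0.57 ± 0.14 and Cdh9 at -0.32 ± 0.09 and -0.27 ± 0.09 in males and females. Of 24 tested regulators of promoter choice and chromatin 13 rose and 1 fell in each sex, among them Nipbl, the cohesin loader, at 0.69 ± 0.10 in males and 0.81 ± 0.10 in females, and Smchd1, known in mice to silence protocadherin promoters, at 0.42 ± 0.08 and 0.58 ± 0.08. The DNA methyltransferase Dnmt3a stood at 0.67 ± 0.11 and 0.65 ± 0.11. With the length and GC trend removed, 6 of the 24 (25%) passed in males and 7 (29.2%) in females in either direction, below the shares of all tested genes that did (31.3% and 37.6%). Ctcf, which binds the protocadherin promoters, did not pass (-0.08 ± 0.07 in males and 0.03 ± 0.07 in females). Of 26 intracellular partners and processing genes 7 rose and 7 fell in each sex. Psenen, a subunit of the gamma-secretase that cleaves protocadherins, was the strongest by p, at -1.40 ± 0.13 in males and -1.55 ± 0.13 in females. Marcks, a membrane protein that gamma protocadherins regulate in mice, fell by 0.60 ± 0.13 in males and 0.77 ± 0.13 in females on the log2 scale.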

How the data were processed

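Hippocampal RNA of 16 libraries was sequenced, 4 per group. Per the labels' protocols, libraries were made with the VAHTS Universal V8 kit from total RNA. Per the submitters' processing notes, HISAT2 2.0.1, HTSeq 0.6.1 and the GRCm39 build were used; the strand setting and the annotation are not given in the sources used here. The deposited table holds raw read counts per gene and FPKM values made by the authors; recomputing FPKM from the deposited counts and exonic lengths gave differences of at most 0.00500. Table coordinates are GRCm39. Own bases, exon overlaps and the GC content of the longest transcript come from GENCODE M21 (GRCm38), matched by gene identifier.

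Counts were tested with the quasi-likelihood test of edgeR 4.0.16 under R 4.3.3 (TMM, 4 group means over 16 libraries, Benjamini-Hochberg over 17569 genes with an FPKM of at least 0.5 in at least 4 libraries). A threshold of 0.05 was used. Alternatives used DESeq2 1.42.0, limma 3.58.1 (on log2 FPKM or TPM with a pseudocount of 0.1 or 1), other scalings and filters, a replicate block, thinning, removal of a length and GC trend and left-out libraries. The fit with array weights was added after seeing the data. Counting limits the precision at totals of 15.2 to 32.5 M counts. The code was tested on simulated data. Replicates of a group differed by more than sampling noise, with a chi-square per degree of freedom of at least 3.05. Figures were drawn with matplotlib 3.10.9.

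The members and gene lists were chosen with earlier results of these data known. Named genes were the 4 largest rises per stress comparison, the C-type genes, the member with the highest FPKM in the alpha, beta, gamma A and gamma B groups, up to 4 passing genes per related list and opposite-strand genes in the array; Pcdha5, Pcdha6, Pcdha9, both Pcdha11 genes, Pcdhb2, Pcdhb5, Pcdhb12, Pcdhb16, Pcdhb19, Pcdhgb1, Pcdhgb2, Pcdhgb8, Pcdhga12 and Ctcf were named after their values were seen. Sequences of the members are not reported here.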

Additional observations from a re-analysis of the deposited data

Results flagged for a closer look

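In 3 of 80 groups of 4 libraries, a single library lay far from the others by Dixon's criterion, which chance meets in about 1 of 20 groups. The summed alpha C-type genes were highest in stressed male library 3, at 34.6 CPM, where the others lay between 31.5 and 31.9 CPM. The summed beta genes were highest in non-stressed female library 3, at 149 CPM, where the others lay between 125 and 128 CPM. Pcdhac1 was highest in stressed female library 2, at 3.22 CPM, where the others lay between 3.02 and 3.04 CPM.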

How the results depend on the processing

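The number of clustered protocadherin genes that passed was 14 in males and 23 in females. In males it was 9 with the stricter filter, 32 with the compared groups fitted alone, 36 without non-stressed female libraries 1 and 4, 30 by limma with array weights, and 4 of 19 among genes at least 5 kb from any opposite-strand gene; in these settings 42.2%, 49.3%, 53.0%, 52.3% and 35.3% of all tested genes passed in either direction, against 39.7%. In females it was 37 by limma on log2(TPM + 0.1), 11 with the compared groups alone, 15 without libraries 1 and 4, and 7 of 19 away from opposite-strand genes, where 55.1%, 36.5%, 31.8% and 44.2% of all tested genes passed, against 49.3%. On TPM 40.7% of all tested genes rose and 14.4% fell in females, and their median log2 fold change was 0.235 in females and 0.204 in males, against -0.031 and -0.032. Leaving out each library in turn gave 10 to 30 in males and 15 to 34 in females. The male count was 30 without non-stressed female library 4 (48.9% of all tested genes), and the female count was 15, 32 and 34 (40.6%, 52.5% and 55.9% of all tested genes) on leaving out non-stressed female library 1, 2 or 3. With the compared groups alone, without libraries 1 and 4 and away from opposite strands, all calls of members were rises. The stricter filter and the restriction away from opposite strands test fewer genes, and TPM shifts the median of all genes; for the other settings the cause was not tested.

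Nonclustered protocadherins passing went from 4 to 8 in males and 7 in females by limma on TPM, 8 in males with the compared groups alone and without libraries 1 and 4, 7 in females with no filter, and 1 in each sex away from opposite strands (leave-one-out 4 to 7 in males and 3 to 7 in females, with 7 in each sex without non-stressed female library 3). Classical cadherins went from 3 to 6 in males with the length and GC trend removed, from 6 to 2 in females without libraries 1 and 4 and to 3 with array weights, and to 0 in both sexes away from opposite strands (leave-one-out 2 to 3 and 3 to 6). Promoter regulators went from 14 to 6 in males and 7 in females with the trend removed, to 9 in females with the compared groups alone, and to 4 and 5 away from opposite strands (leave-one-out 12 to 16 and 11 to 17). Partners went from 14 to 2 and 1 away from opposite strands (leave-one-out 13 to 16 and 10 to 16). The restriction away from opposite strands left 3 nonclustered protocadherins, 3 classical cadherins, 6 regulators and 3 partners to test, among 5927 genes; for the other settings the cause was not tested.

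The female effect on Pcdhb9 (-0.01) changed sign to 0.011 with RLE scaling, 0.011 with DESeq2, 0.016 and 0.011 by limma on FPKM with pseudocounts of 0.1 and 1, 0.26 on TPM, 0.034 with no filter, 0.0078 with the stricter filter, 0.16 with the trend removed, 0.018 away from opposite strands and 0.011 after thinning. Leaving out each library gave -0.11 to 0.14. The effect passed in none of these settings, and its size under RLE scaling, DESeq2, FPKM and TPM followed the median of all tested genes, which was -0.031, and -0.010, -0.009, -0.011, -0.013 and 0.235 under these. Replicate numbers did not pair the samples: correlations of same-numbered deviations ran from -0.19 to 0.14, and a replicate block gave 13 members in males and 24 in females.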
